A study of Homo sapiens with 4 samples.

Results

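The NF-kB subunits and the proteins that restrain them were followed in KM-H2 cells, a Hodgkin lymphoma line. The set was chosen by gene name and holds 10 genes, the 5 subunits NFKB1, NFKB2, REL, RELA and RELB and the 5 regulators NFKBIA, NFKBIE, TNFAIP3, BCL3 and CYLD. Of these, 9 genes were read by 24 probe sets annotated to a single gene, among 19775 genes and 54675 probe sets in all. The 2 probe sets that cover BCL3 are annotated to a further gene as well, so no expression values of BCL3 are given. Total RNA was amplified and profiled on 4 Affymetrix expression arrays. Of these, 2 were from cells with PTPN1 knocked down by small interfering RNA (siRNA) and 2 from cells given a non-silencing control. All arrays came from the same line under standard culture, and each pair is described as technical replicates of one another. SDs, SEs and p-values therefore measure technical spread. Arrays with the same replicate number correlated at 0.9938 and 0.9946 across the groups. The 2 knockdown arrays correlated at 0.9894 and the 2 non-silencing arrays at 0.9913. The technical spread therefore includes any offset shared by arrays of equal number, for which the main comparison has no term. Values are log2 expression made with RMA, and differences are knockdown minus non-silencing on that scale.

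NF-kB is a family of transcription factors that form dimers and are held inactive in the cytoplasm by I-kappa-B proteins. In the canonical arm a kinase complex marks I-kappa-B for destruction and dimers containing RELA or REL enter the nucleus. In the alternative arm the kinase NIK, encoded by MAP3K14, drives processing of the NFKB2 precursor and frees dimers with RELB. Several inhibitors, among them NFKBIA and TNFAIP3, are themselves induced by NF-kB and close a feedback loop. Hodgkin and Reed-Sternberg cells are known for constantly active NF-kB, and lesions of inhibitor genes have been described in them. RNA levels of these genes show neither protein nor nuclear activity.

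PTPN1, the phosphatase targeted by the knockdown, read 7.0 and 7.36 on its brightest probe set in the knockdown arrays, against 8.16 and 8.40 in the non-silencing arrays. That probe set was lower in both knockdown arrays, by a log2 difference of -1.10. In limma it passed 0.05 neither over all probe sets nor over genes, where its limma adjusted p was 0.769. The other 3 PTPN1 probe sets, all below the array median on all 4 arrays, differed by 0.01, -0.07 and -0.03 with overlapping groups. With the mean of the 4 probe sets the PTPN1 difference was -0.30, and with their median -0.01. All 10 listed markers of Hodgkin and Reed-Sternberg cells, among them TNFRSF8 (CD30), IRF4 and FSCN1, lay above the array median on all 4 arrays. Markers of other cells were not uniformly dim, since 4 of 7 T cell markers, 3 of 6 myeloid, 2 of 6 fibroblast, 2 of 5 epithelial and 1 of 5 endothelial markers did so too. All these counts stand against the 19775 genes on their brightest probe sets. On all 4 arrays 7306 of those genes lay above the upper quartile and a further 4617 above the median. With 2 arrays a group, precision is limited by their number.

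TNFAIP3 had the largest difference of the 24 probe sets. It encodes A20, a ubiquitin-editing enzyme that shuts off signalling to the kinase complex, and both of its probe sets were higher in both knockdown arrays. NFKBIA, the main I-kappa-B, and NFKB1 were also higher in both knockdown arrays, by smaller amounts. RELA, RELB, NFKB2 and NFKBIE differed by at most 0.15 in either direction on their brightest probe sets, and REL gave unlike answers on its 5 probe sets. No probe set passed the test across the array. In limma 0 of the 24 had an adjusted p under 0.05, as had 0.0% of all 54675 probe sets, and 2 of the 24 had an unadjusted p under 0.05, against 2.5% of all.

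The promoters of these genes are shown because several members are known targets of NF-kB itself. RefSeq promoter windows of 300 bases, 250 before and 50 after each annotated start in GRCh38.p14, were listed for 8 of the 10 genes, 14 windows in all, and not for RELB and NFKBIE. A strict kappa-B motif, GGG followed by any 2 bases and TTTCC, was sought on either strand and occurred in 7 of the 14 windows and in 6 of the 8 genes (NFKB1, NFKB2, REL, NFKBIA, TNFAIP3 and CYLD). It occurred in 1.91% of all 35116 windows and in 2.33% of the 27305 genes with a window. A loose form, GGG followed by any 5 bases and CC, which contains every strict match, occurred in all 14 member windows and in 58.7% of all windows, so its presence separates little. The STAT motif, TTC and GAA with any 3 bases between, a palindrome, was found in 1 member window, of RELA, and in 7.66% of all. The 4 stretches below hold the 250 bases before the start, 5′ to 3′ on the gene's strand in lower case, with the strict kappa-B match in capitals. They belong to 3 genes that were higher in both knockdown arrays and to REL. The matches of NFKB2 and CYLD are not shown. The brightest probe sets of these genes differed by -0.01 and 0.18, and that of CYLD was also higher in both knockdown arrays.
TNFAIP3 (chr6:137867009-137867258, plus strand): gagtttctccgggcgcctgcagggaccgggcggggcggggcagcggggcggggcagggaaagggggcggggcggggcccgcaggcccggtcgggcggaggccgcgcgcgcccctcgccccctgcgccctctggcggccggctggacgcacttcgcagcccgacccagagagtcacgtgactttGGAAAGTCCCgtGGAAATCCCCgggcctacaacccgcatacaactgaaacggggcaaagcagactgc
NFKBIA (chr14:35404750-35404999, minus strand): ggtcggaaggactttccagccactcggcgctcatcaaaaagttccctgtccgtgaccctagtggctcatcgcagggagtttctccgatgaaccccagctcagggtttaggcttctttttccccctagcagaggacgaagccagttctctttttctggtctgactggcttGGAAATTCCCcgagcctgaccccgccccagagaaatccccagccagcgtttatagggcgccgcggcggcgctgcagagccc
NFKB1 (chr4:102501109-102501358, plus strand): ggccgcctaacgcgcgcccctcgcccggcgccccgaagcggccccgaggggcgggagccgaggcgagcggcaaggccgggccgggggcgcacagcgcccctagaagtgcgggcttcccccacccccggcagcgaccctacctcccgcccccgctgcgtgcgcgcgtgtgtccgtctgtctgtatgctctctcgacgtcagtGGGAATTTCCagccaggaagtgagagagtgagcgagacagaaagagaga
REL (chr2:60881324-60881573, plus strand): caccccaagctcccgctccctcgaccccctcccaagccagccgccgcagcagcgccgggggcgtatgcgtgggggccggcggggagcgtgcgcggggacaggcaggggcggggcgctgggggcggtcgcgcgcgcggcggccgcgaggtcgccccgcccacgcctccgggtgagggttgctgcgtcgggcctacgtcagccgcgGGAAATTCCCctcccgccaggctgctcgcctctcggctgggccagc

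TNFAIP3 carried 2 matches, both read on the opposite strand, at positions -67 to -58 (GGGACTTTCC on that strand) and -55 to -46 (GGGGATTTCC). NFKBIA, REL and NFKB1 each carried the same 10 letters, GGGAATTTCC. They lay at -81 to -72 in NFKBIA and -46 to -37 in REL, both on the opposite strand, and at -49 to -40 in NFKB1 on the gene's own strand. NFKB2 had a match before 2 of its 3 starts and CYLD before 1 of 3. A match is a run of letters and not evidence of binding, and these arrays did not measure binding. The main REL probe set did not separate the groups, while its probe set 239486_at did. Whether the motif goes with the differences was not tested.

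**Figure D1:**
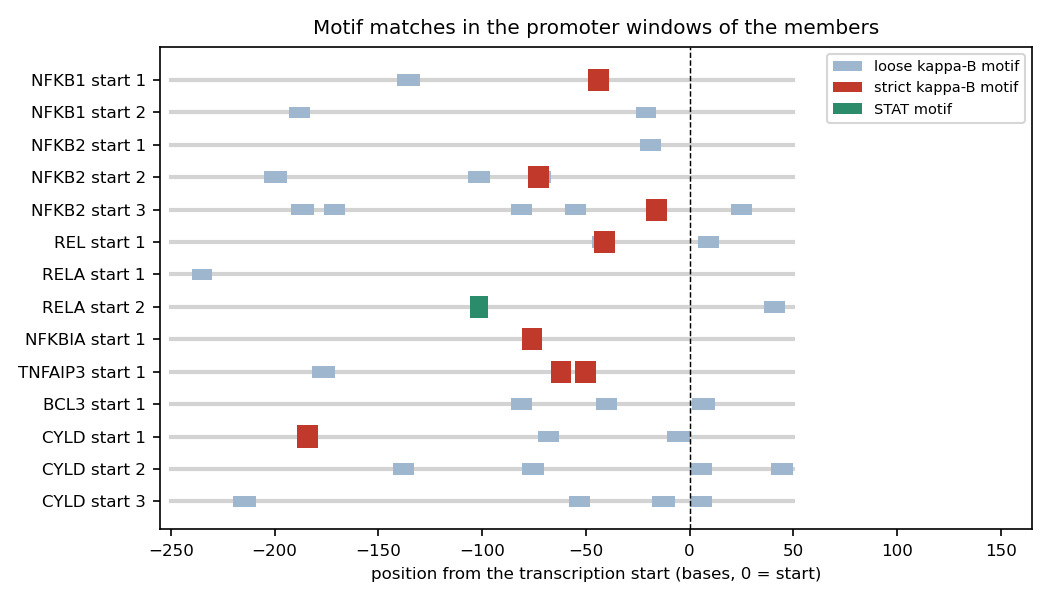
Motif matches in the 14 promoter windows of 8 member genes, by position from the transcription start in bases (x axis), with 1 row for each annotated start. Red boxes are strict kappa-B matches, pale boxes loose ones and the green box the STAT motif. Strict matches lie in 7 windows, and TNFAIP3 holds 2 in its single window.

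Among the subunits, NFKB1 encodes the precursor of p50, the partner of RELA in the classical dimer. Its single probe set read 9.74 and 9.53 in the knockdown arrays, against 9.51 and 9.33 in the non-silencing arrays. Both knockdown arrays lay above both non-silencing arrays, but knockdown array 2 and non-silencing array 1 were nearly equal. The log2 difference was 0.22 (SE 0.15, 95% interval -0.16 to 0.59), with 0.23 at array number 1 and 0.21 at number 2.

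RELA encodes p65, the main activating subunit. Its brighter probe set read 8.63 and 8.60 in the knockdown arrays, against 8.70 and 8.65 in the non-silencing arrays. The groups did not overlap, yet the difference was only -0.06 (95% interval -0.37 to 0.25). The dimmer RELA probe set read 6.69 and 5.91 in the knockdown arrays and 6.64 and 6.23 in the non-silencing arrays, so it varied more between array numbers than between groups.

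REL encodes c-Rel, a lymphoid subunit whose gene is often gained in Hodgkin lymphoma. Its brightest probe set, 228812_at, read 9.81 and 10.24 in the knockdown arrays, against 9.88 and 10.08 in the non-silencing arrays. The groups overlapped, and the difference was 0.04 (95% interval -0.44 to 0.52). The probe sets 235242_at, 206036_s_at and 206035_at gave differences of -0.00, 0.09 and 0.07 and overlapped too. The fifth, 239486_at, read 7.86 and 8.08 in the knockdown arrays, against 7.45 in both of the non-silencing arrays. Here the groups stood clearly apart, with a difference of 0.52 (SE 0.14, 95% interval 0.16 to 0.88) that was 0.41 and 0.63 within array numbers 1 and 2. Its unadjusted limma p of 0.0129 was the lowest of the 24 probe sets, while the limma adjusted p was 1.0. The table used here does not say which part of the REL transcript each probe set reads, so the disagreement could not be assigned to an exon or an isoform.

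NFKB2 and RELB form the alternative arm. NFKB2, the precursor of p52, read 7.66 and 7.61 in the knockdown arrays, against 7.63 and 7.67 in the non-silencing arrays. These 4 values were the closest together of any member's brightest probe set, with a difference of -0.01 (95% interval -0.33 to 0.30). The sign of so small a value turned when each array was centred on its median (0.0035). RELB read 8.51 and 8.19 in the knockdown arrays and 8.36 and 8.04 in the non-silencing arrays. It was higher with knockdown within each number, by 0.15 and 0.14, but the arrays numbered 1 were higher than those numbered 2 in both groups, so the groups overlapped. The mean difference of RELB was 0.15 (95% interval -0.32 to 0.62).

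NFKBIA encodes I-kappa-B alpha, which traps RELA dimers and is resynthesised after each round of activation. Its main probe set read 11.35 and 11.31 in the knockdown arrays, against 11.03 and 11.17 in the non-silencing arrays. The second probe set, near the array median, read 5.30 and 5.31 in the knockdown arrays, against 5.18 and 4.98 in the non-silencing arrays. On both probe sets the groups stood apart with knockdown higher, and the differences were alike, at 0.23 (95% interval -0.10 to 0.56) and 0.23 (-0.12 to 0.57). They amount to 1.17-fold on each. The numbers ordered the 2 probe sets differently, with 0.32 and 0.14 on the first and 0.12 and 0.33 on the second.

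NFKBIE encodes I-kappa-B epsilon, an inhibitor that acts mainly on REL and RELA dimers. It read 8.43 and 8.56 in the knockdown arrays, against 8.34 and 8.48 in the non-silencing arrays. The groups overlapped, and the difference of 0.08 had a 95% interval from -0.26 to 0.43. Within the array numbers it was 0.09 and 0.07.

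TNFAIP3 read 9.66 and 9.16 on probe set 202644_s_at in the knockdown arrays, against 8.53 and 9.07 in the non-silencing arrays. On 202643_s_at it read 8.45 and 7.88 in the knockdown arrays, against 7.20 and 7.54 in the non-silencing arrays. Knockdown array 1 was the highest and non-silencing array 1 the lowest of the 4 arrays on both probe sets. The mean differences were 0.61 (SE 0.26, 95% interval -0.03 to 1.26) and 0.80 (SE 0.24, 95% interval 0.20 to 1.39), or 1.53-fold and 1.74-fold. The unadjusted limma p-values were 0.0594 and 0.0176, and both limma adjusted p-values were 1.0.

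Most of the TNFAIP3 difference came from the arrays numbered 1. Between them it was 1.14 and 1.25 on the 2 probe sets, and between the arrays numbered 2 it was 0.09 and 0.35. On the brighter probe set, 0.425% of the 19775 genes, TNFAIP3 included, had a difference at least as large as that of TNFAIP3 within number 1, and 27.6% did so within number 2. Without knockdown array 1 the TNFAIP3 difference was 0.36 and without non-silencing array 1 it was 0.34, against 0.87 without knockdown array 2 and 0.89 without non-silencing array 2. Beta-actin, whose 3′ minus 5′ control signal follows RNA integrity and amplification, gave 1.33 and 0.97 in the knockdown arrays and 1.31 and 0.97 in the non-silencing arrays. The beta-actin control therefore differed between the numbers and hardly between the groups. The same measure for GAPDH gave 0.29 and 0.26 in the knockdown arrays and 0.32 and 0.21 in the non-silencing arrays, a smaller gap between the numbers. The part of either control in the TNFAIP3 values was not tested. As RNA was pooled over cells, a change in every cell and a change in a share of them cannot be told apart.

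CYLD encodes a deubiquitinase that removes the ubiquitin chains on which the kinase complex assembles. None of its 7 probe sets lay above the upper quartile on all 4 arrays, which was reached by 8 of the 9 measured genes on their brightest probe set, CYLD being the exception. The brightest, 214272_at, read 5.58 and 5.31 in the knockdown arrays, against 5.25 and 5.29 in the non-silencing arrays. The groups stood apart by a narrow margin, with a difference of 0.18 (95% interval -0.20 to 0.56) that was 0.33 and 0.02 within the numbers. The other CYLD probe sets gave differences from -0.13 to 0.12 with overlapping groups. Probe sets 213295_at, 221905_at and 39582_at were higher in the arrays numbered 2 of both groups, for example 4.37 and 5.28 in the knockdown arrays and 4.31 and 5.11 in the non-silencing arrays for 213295_at.

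**Figure D2:**
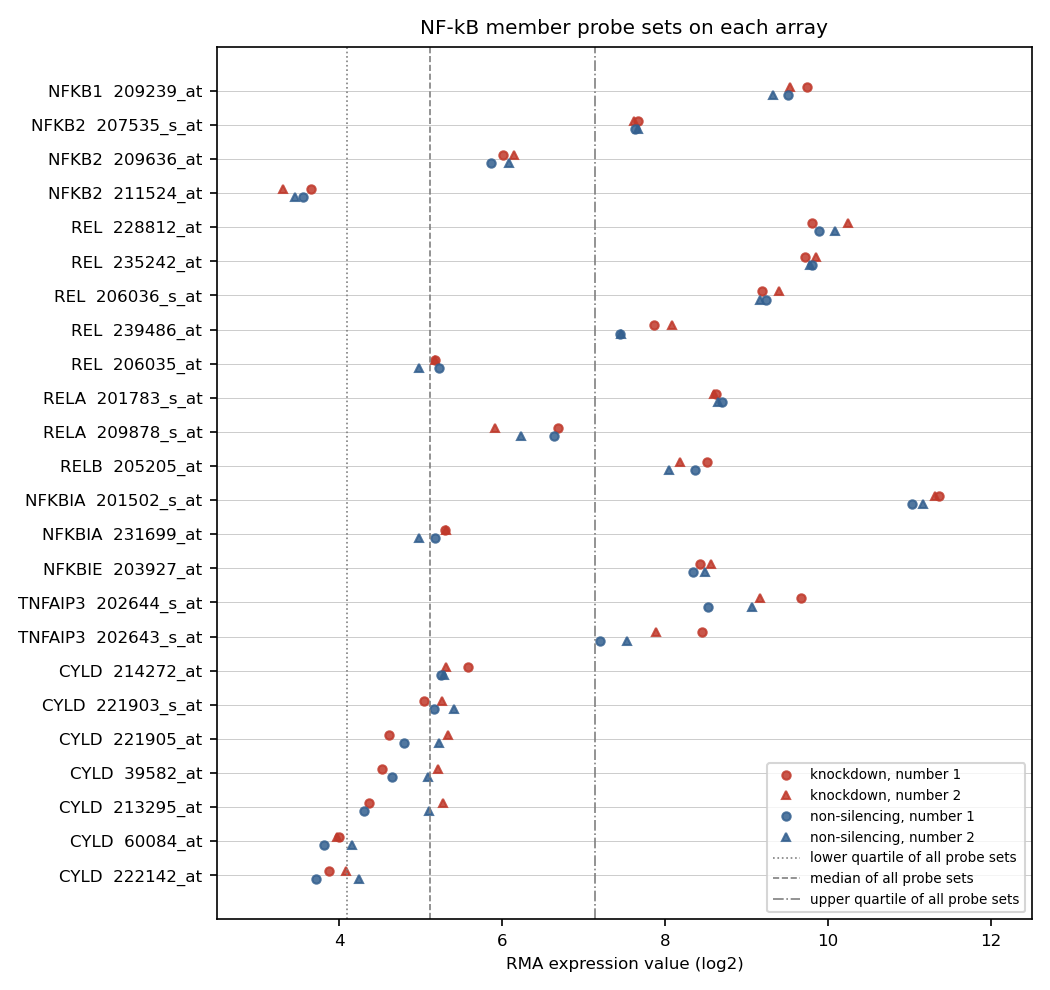
RMA expression values in log2 (x axis) of the 24 member probe sets (rows), with knockdown arrays in red and non-silencing arrays in blue, circles for number 1 and triangles for number 2. Grey lines mark the quartiles of all probe sets. The 2 TNFAIP3 probe sets and REL 239486_at show the red points to the right of the blue ones, and CYLD stays near or below the median line.

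Most members gave signal well above the bulk of the array in both groups. In all 4 arrays 12 of the 24 probe sets lay above the upper quartile of about 7.13, a standing shared by 22.9% of all probe sets. By gene, 8 of 9 lay there on the brightest probe set, against 36.9% of all genes. At the other end the NFKB2 probe set 211524_at lay below the lower quartile on all arrays. Probe sets differ in how strongly they bind, so these standings do not rank the subunits by transcript amount.

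Counted over the 24 probe sets, 7 were higher in both knockdown arrays than in both non-silencing arrays, against 13.4% of all probe sets, and 1 was lower, against 15.3%. The 7 comprise both TNFAIP3 probe sets, both of NFKBIA, and 1 each of NFKB1, REL and CYLD, so they represent 5 genes. Within both array numbers 11 were higher and 2 lower, against 27.7% and 28.5% of all probe sets. The median difference of the 24 was 0.08, and 15 of them lay above 0, against 48.7% of all. Taken by gene, 4 of 9 stood apart with knockdown higher and 1 with knockdown lower, against 12.4% and 15.0% of all genes. On their brightest probe sets the 4 regulators all had positive differences, with a median of 0.20, whereas the 5 subunits had a median of 0.04 with 3 above 0. For CYLD, however, 4 of its 7 probe sets lay below 0, and the mean of its probe sets gave 0.02. Whether regulators and subunits differed from each other was not tested.

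**Figure D3:**
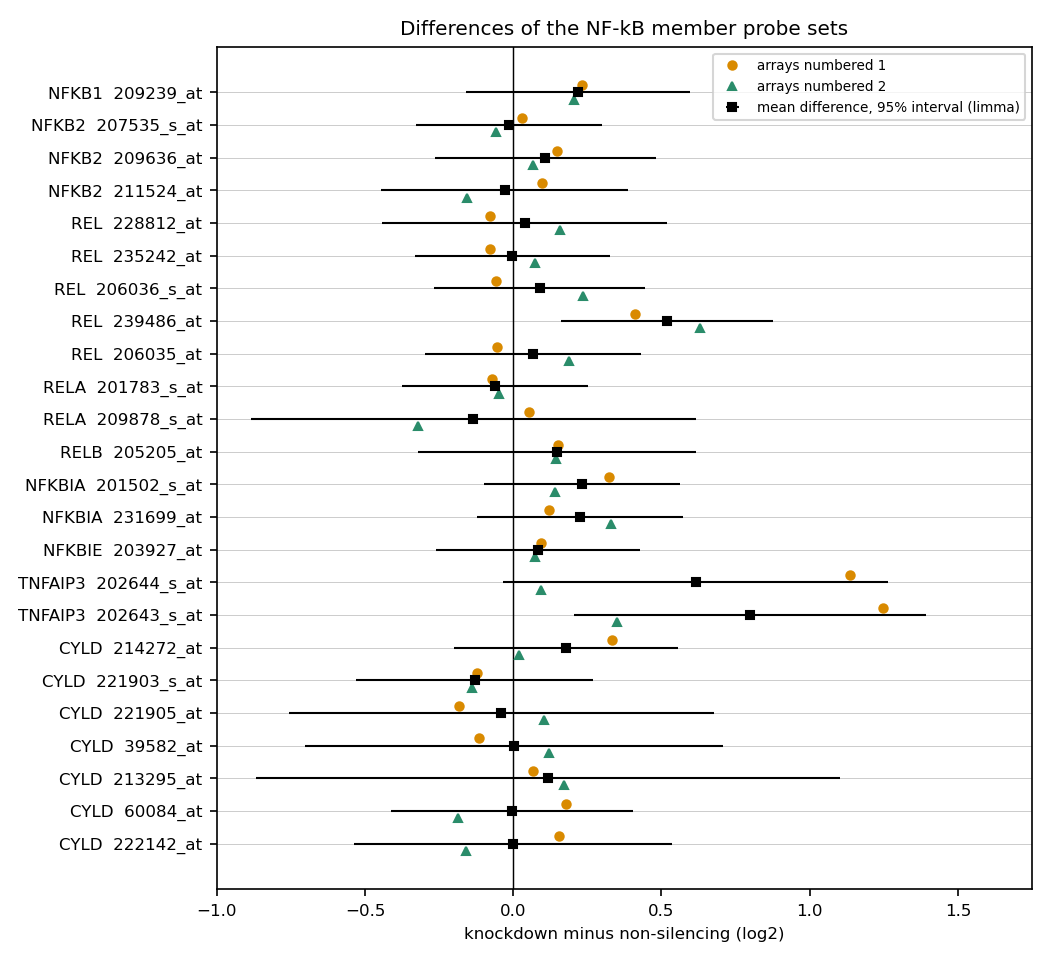
Knockdown minus non-silencing in log2 (x axis) for the 24 member probe sets (rows), with squares for the mean difference, bars for its 95% interval in limma, circles for the arrays numbered 1 and triangles for those numbered 2. Only REL 239486_at (0.16 to 0.88) and TNFAIP3 202643_s_at (0.20 to 1.39) have intervals that leave out 0, before any adjustment. The 2 TNFAIP3 probe sets show the widest gap between numbers on the positive side.

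The profile of TNFAIP3 over the 4 arrays was most closely matched by USP53, VWA5A, ARHGAP29, MVP and DCAF4L1. Root mean square distances of values centred on each gene's mean ran from 0.063 for USP53 to 0.11 for DCAF4L1, over 4 arrays. Each had its larger difference at number 1, as with VWA5A at 1.20 and 0.30. That pattern follows from picking them by likeness over the same 4 arrays. With 4 arrays such likeness describes these hybridisations only.

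The rest of the pathway was read through lists of further regulators, kinases, adaptors, receptors and targets, with 97 of 105 distinct genes measured. No gene of any list passed, with 0 adjusted limma p-values under 0.05 and 2 genes at an unadjusted p under 0.05, LTA and EBI3, against 2.57% of all genes. Among 18 of 19 other I-kappa-B proteins and negative regulators, 5 were higher and 1 lower with the groups apart. Over all genes these shares were 12.4% and 15.0%, the values against which the counts of each list stand. The median difference of the list was 0.10, against -0.01 over all genes.

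TNIP2, an A20-binding inhibitor also called ABIN-2, read 10.16 and 9.58 in the knockdown arrays, against 9.50 and 9.11 in the non-silencing arrays. Its difference of 0.57 (SE 0.25) was 0.66 and 0.47 within the numbers. Without knockdown array 1 the TNIP2 difference was 0.27, without non-silencing array 2 it was 0.37, and without knockdown array 2 it was 0.86. TRAF3, which keeps the kinase of the alternative arm low, read 9.79 and 9.74 in the knockdown arrays and 9.54 and 9.52 in the non-silencing arrays, a difference of 0.24 with little spread inside either group. NFKBIL1 differed by 0.27 and NLRC5, an NLR family regulator, by 0.22. For NLRC5 the difference was 0.36 and 0.08 within the numbers and 0.079 without knockdown array 1. The I-kappa-B relatives NFKBIB and NFKBIZ, named after their values were seen, both differed by 0.07 with overlapping groups.

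Of 13 measured members of the kinase list, 1 stood apart with knockdown higher and 0 lower, against 12.4% and 15.0% of all genes, and the median was 0.04. That 1 was MAP3K14, which read 6.24 and 6.16 in the knockdown arrays, against 5.94 and 6.09 in the non-silencing arrays, a difference of 0.19 that was 0.11 without non-silencing array 1. MAP3K8, named after its value was seen, had the largest difference of the list, -0.35, with overlapping groups. The catalytic subunits IKBKB and CHUK differed by 0.08 and -0.07, and the scaffold IKBKG (NEMO) by -0.01, all with overlapping groups and intervals such as -0.34 to 0.50 for IKBKB. Centring the arrays turned the sign of IKBKG (0.0111), and the median of all its probe sets turned that of IKBKB (-0.0048).

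Among adaptors and ubiquitin ligases, 1 of 19 measured members was higher and 1 lower with the groups apart, against 12.4% and 15.0% of all genes, with a median of 0.00. These were TRAF6, a ligase downstream of Toll-like and CD40 receptors (0.10), and RNF31, the catalytic part of the linear ubiquitin ligase (-0.13). Of 14 receptors, 1 stood apart with knockdown higher and 0 lower, against the same shares of all genes, and the median was -0.04. It was CD40, which read 9.30 and 9.45 in the knockdown arrays, against 8.71 and 9.26 in the non-silencing arrays, a difference of 0.39 (0.59 and 0.19 within the numbers). As with TNFAIP3, non-silencing array 1 was the lowest of the 4, and without it the CD40 difference was 0.12.

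Textbook targets of NF-kB were the largest list, with 36 of 38 measured. In this list 11 were higher and 3 lower with the groups apart, against 12.4% and 15.0% of all genes. Of the 36, 27 lay above 0, against 48.2% of all genes, and the median was 0.11. By number the median was 0.27 for number 1 and 0.13 for number 2. IL6 had the largest difference, 1.36, but it rested on knockdown array 1, at 9.11 with 6.97 in knockdown array 2, against 6.65 and 6.71 in the non-silencing arrays. Without knockdown array 1 the difference of IL6 was 0.29. LTA, which encodes lymphotoxin alpha, read 9.58 and 9.07 in the knockdown arrays, against 8.76 and 8.06 in the non-silencing arrays, and was higher by 0.82 and 1.0 within the numbers. EBI3, a subunit of interleukin-27, read 11.49 and 11.82 in the knockdown arrays and 10.67 and 11.21 in the non-silencing arrays, with 0.82 and 0.61 within the numbers. IRF1, a transcription factor of the interferon response, differed by 0.55 (0.90 and 0.19). Leaving out 1 array lowered LTA to 0.57 (without non-silencing array 2), EBI3 to 0.44 (without non-silencing array 1) and IRF1 to 0.18 (without knockdown array 1).

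Other targets did not share the direction. CXCL10 differed by -0.86, but its groups overlapped, at 10.31 and 11.78 in the knockdown arrays against 11.60 and 12.22 in the non-silencing arrays. Within the numbers the CXCL10 difference was -1.29 and -0.43. With the groups apart, BCL2A1, a survival gene, differed by -0.25, TNFAIP2 by -0.34 and CCL22 by -0.14. The caspase inhibitor gene CFLAR, at 0.01, and the activation marker CD83, at 0.07, lay close to 0. All of these genes were picked with their values known. The strict kappa-B motif was present before a start of 7 of the 32 listed targets with a promoter window, including IL6 and not LTA, EBI3 or IRF1 among the targets named. In the kinase list 0 of 12 had it, among adaptors 2 of 19, among receptors 1 of 11 and among the further regulators 4 of 17, namely NFKBIB, NFKBIZ, TNIP1 and TRAF3. The share over all genes with a window was 2.33%.

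**Figure D4:**
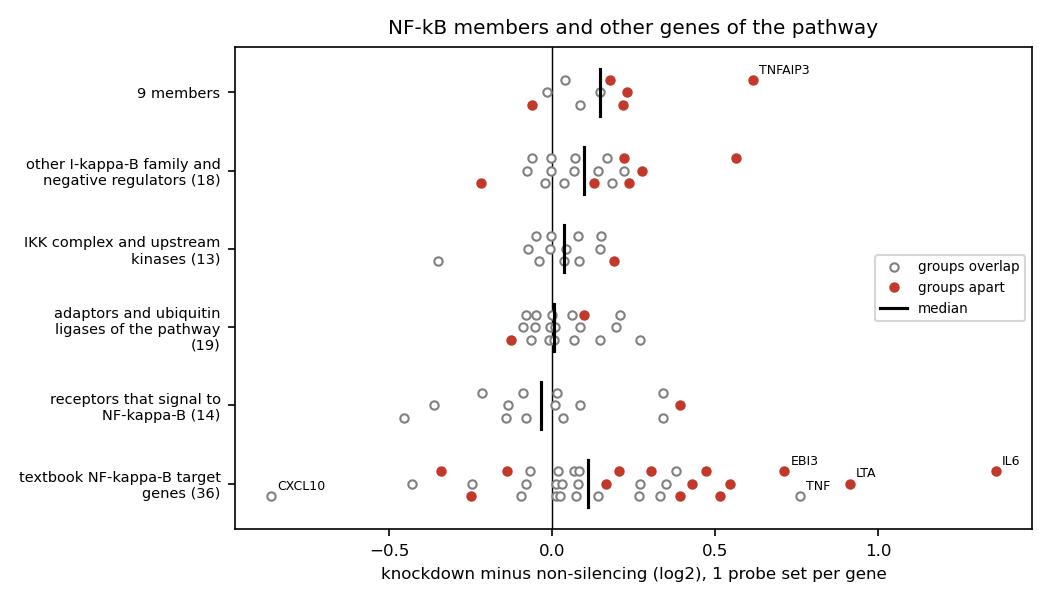
Knockdown minus non-silencing in log2 (x axis) for the 9 measured members and the genes of 5 pathway lists (rows), with 1 probe set a gene. Filled points are genes whose groups do not overlap, open points genes whose groups do, and bars are medians. Target genes spread from -0.86 for CXCL10 to 1.36 for IL6, and the kinases from -0.35 to 0.19.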

How the data were processed

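Arrays were assigned to knockdown and non-silencing groups by their titles. Per the submitters' processing notes, the deposited log2 values were made by the authors with RMA, a method of background correction, quantile normalization and probe summary. The version is not given in the sources here. RMA narrows differences of dim probe sets, and the 2-cycle amplification named in the labels' protocols can favour 3′ ends. Probe sets were named from the platform annotation, with symbols looked up in RefSeq GRCh38.p14. Those with several genes or none were not named.

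No further normalization was applied. The groups were compared with limma 3.58.1 in R 4.3.3 (lmFit, eBayes, no covariates, two-sided), once over all 54675 probe sets for the members and once over 19775 genes for the lists, each gene by its brightest probe set on average. P-values were adjusted by Benjamini-Hochberg over each whole table, with 0.05 as the threshold. An exact permutation of 2 against 2 arrays cannot give a p below 0.333, so none is given. On simulated data for this comparison with 54675 probe sets, 0% of those changed by 1 were recovered and 52% of those changed by 2. Over 19775 genes these shares were 16% and 70%. The simulated noise was independent between arrays, with no effect shared by arrays of equal number.

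The members and lists were chosen with earlier results of these data known. Named genes were all members, the kinases of both arms, and from each list the 4 genes with the largest difference among those with groups apart. Others are marked in the text as named after their values were seen. Alternatives were normalization, centring, probe set choice, a filter on dim values, variance models, a replicate block and leaving out each array.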

Additional observations from a re-analysis of the deposited data

How the results depend on the processing

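The count of members past the threshold was 0 of 24 probe sets under every alternative run. Over all 19775 genes the count was 0 with the deposited values, and 72 with the replicate block, 1 with a variance trend and 3 with a robust trend, and from 0 to 1 without 1 array. With the replicate block 1 pathway gene, LTA, passed (limma adjusted p = 0.0474), as did the targeted gene PTPN1 (limma adjusted p = 0.0251). The block is shown only here, since no label says what arrays of equal number share. Deviations of same-numbered arrays correlated at 0.65 across genes, a hint from these data. With the block the lowest limma adjusted p of a member gene was 0.47, for TNFAIP3. The median difference over the 9 members, 0.15, was 0.093 within number 2 and 0.11 to 0.25 without 1 array.

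TNFAIP3, NFKBIA, NFKB1, NFKBIE and CYLD kept a positive sign and RELA a negative one in the gene-level settings run. Signs turned for the following values. NFKB2 was 0.0035 with centred arrays, 0.021 and 0.11 with the mean and median of its probe sets and 0.028 within number 1, and REL was -0.077 within number 1. IKBKB was -0.0048 with the median of its probe sets and IKBKG 0.011 with centred arrays. Centring gave 0.015 for REL 235242_at, 0.014 for CYLD 60084_at and 0.016 for CYLD 222142_at, and repeated quantile normalization gave 0.0097 and 0.012 for the last pair. Without 1 array the ranges that crossed 0 were -0.039 to 0.010 for NFKB2, -0.18 to 0.25 for REL, -0.015 to 0.31 for RELB, -0.088 to 0.25 for IKBKB, -0.21 to 0.065 for CHUK, -0.10 to 0.087 for IKBKG. Among the further probe sets they were for NFKB2 -0.0045 to 0.22 (209636_at), -0.20 to 0.14 (211524_at), and for REL -0.070 to 0.063 (235242_at), -0.015 to 0.19 (206036_s_at), -0.057 to 0.19 (206035_at), and for RELA -0.53 to 0.26 (209878_s_at), and for CYLD -0.40 to 0.32 (221905_at), -0.34 to 0.35 (39582_at), -0.34 to 0.57 (213295_at), -0.18 to 0.17 (60084_at), -0.26 to 0.26 (222142_at). The cause of these turns was not tested. In simulations of the main fit, with noise independent between arrays, 0% of changes of 1 were recovered over probe sets and 16% over genes. The absence of calls in the main fit therefore does not show that the members were unchanged.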
